A study of Mus musculus with 2 samples.

Results

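The laminins and other basement membrane proteins described here are 10 genes, chosen by symbol from the 33696 genes of the series: the laminin chains Lama2, Lama4, Lama5, Lamb1, Lamb2 and Lamc1, the nidogens Nid1 and Nid2, perlecan (Hspg2) and agrin (Agrn). All 10 were found. They were followed across the cell classes of mouse dura mater, the outer membrane around the brain, in female mice after sham surgery and in female mice 14 days after jugular venous ligature (JVL-14). Each group is 1 droplet-based single-cell RNA library, the cells of 2 meninges were combined per well before the sort for viable singlets, and the strain, the age, the number of mice per library and the time after sham surgery are not given in the sources used here. With 1 library a group no test of the treatment is possible, and every difference between the libraries below is without a replicate check.

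Basement membranes are thin sheets of matrix beneath endothelium and epithelium and around muscle, fat and Schwann cells. Laminins, assembled in the cell as trimers of an alpha, a beta and a gamma chain, form one of their networks and collagen IV forms the other. Nidogens link the networks, and the heparan sulphate proteoglycans perlecan and agrin bind to them and to cell surface receptors. The alpha chain gives a laminin most of its receptor binding, and tissues differ mainly in which alpha chain they make.

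Counts are of unique molecular identifiers (UMIs), 1 per captured RNA molecule at its 3′ end. No length correction was made, and the part of gene length in differences between genes was not tested. A level is the UMIs of a gene summed over the cells of a class and library, divided by all UMIs of that class and library and scaled to 1000000 (CPM), with an exact Poisson 95% interval. A difference is the ratio of the JVL-14 level to the sham level with an exact conditional binomial 95% interval. These intervals cover counting error only, not variation between mice or libraries. A gene was counted as measured in a class if its mean level was at least 20 CPM and it had at least 20 UMIs, and a class was compared if it had at least 50 cells in each library. The libraries held 33996641 (sham) and 18796260 (JVL-14) UMIs, and 4683 and 2470 cells were retained, with medians of 4527 and 4531 UMIs. They shared 2 cell barcodes, 1 of them among retained cells.

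Sham and JVL-14 libraries differed in what came with the dura: 248 and 3 cells were named skeletal muscle and 80 and 0 choroid plexus. Clusters were named from marker genes that include none of the members. The name fibroblast went to 4 clusters (855 sham and 418 JVL-14 cells), which are called here by leading genes: Inmt Mfap4 (389 and 220), Chad Comp (330 and 148), Ptgds Apod (76 and 47) and Pi16 Fbln2 fibroblasts (60 and 3). A further cluster of 412 and 133 cells led by Penk and Gjb6 scored best as arachnoid barrier. In it, Slc47a1 (725 and 729 CPM) and Cldn11 (300.5 and 389 CPM) were high, but the defining barrier genes Dpp4, Cdh1 and Slc22a8 had 2 to 11 UMIs each in each library, so it is called the Penk Gjb6 cells. The Tnmd Matn4 cells (267 and 160) and the Penk Igfbp2 cells (152 and 67) are unnamed clusters large enough to compare.

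The promoters of 3 members with different class patterns are shown first, as RefSeq (GRCm38.p6) gives the 250 bases before the annotated start, 5′ to 3′ on the gene's strand. Capitals mark the GC box GGGCGG on either strand. The files' own build is mm39, and no coordinates of it are given. Lama2 (chr10:27616943-27617192, minus strand) was the alpha chain gene with the highest level in fibroblasts, Lama5 (chr2:180225860-180226109, minus strand) was found mostly in endothelium, and Hspg2 (chr4:137468553-137468802, plus strand) had its highest level in endothelium.
Lama2: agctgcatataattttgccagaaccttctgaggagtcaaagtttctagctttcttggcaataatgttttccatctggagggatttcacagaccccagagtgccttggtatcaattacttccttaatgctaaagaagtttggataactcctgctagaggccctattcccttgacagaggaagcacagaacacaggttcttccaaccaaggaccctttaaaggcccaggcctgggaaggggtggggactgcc
Lama5: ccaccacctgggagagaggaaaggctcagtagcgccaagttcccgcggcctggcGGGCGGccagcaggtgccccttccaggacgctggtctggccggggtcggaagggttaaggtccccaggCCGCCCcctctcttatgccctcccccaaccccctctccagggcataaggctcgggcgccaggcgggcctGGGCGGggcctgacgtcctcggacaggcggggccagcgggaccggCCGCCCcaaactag
Hspg2: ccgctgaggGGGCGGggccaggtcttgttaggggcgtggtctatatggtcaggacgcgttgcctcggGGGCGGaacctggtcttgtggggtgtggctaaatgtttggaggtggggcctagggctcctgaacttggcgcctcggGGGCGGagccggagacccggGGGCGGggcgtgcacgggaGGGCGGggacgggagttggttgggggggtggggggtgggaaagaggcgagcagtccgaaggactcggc

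The Lama2 window held no CG dinucleotide and no GC box. The Lama5 window held 19 CG dinucleotides and 4 GC boxes, and the Hspg2 window 20 and 5. Over 32851 promoter windows of the same length the median was 6 CG dinucleotides, and 32.7% held a GC box. GC boxes were not particular to the genes high in endothelium: the window of Lamb1 held 2, that of Nid1 held 1, and the 2 windows listed for Agrn held 12 and 2, while that of Lamb2 held none. Neither TATAAA (12.4% of windows) nor the ETS motif CCGGAAG (6.91% of windows), both searched on both strands, occurred in any of these windows. Windows were matched for 7 of the 10 members, and Lama4, Lamc1 and Nid2 had no entry. A match or its absence describes these letters only.

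The alpha chain genes differed in the cell classes that held them. Lama2, which encodes the alpha chain of the laminin of muscle fibres and Schwann cells, was at 98.5 CPM (interval 90.8 to 107) in sham fibroblasts and 80.4 CPM (70.7 to 91.0) in JVL-14 fibroblasts, and fibroblasts held 70.1% and 69.7% of all its UMIs. Schwann and glial cells had 47.7 CPM (23.8 to 85.3) and 81.9 CPM (46.8 to 133), overlapping fibroblasts in JVL-14, and they had the highest Lama2 level of the classes with at most 5% mitochondrial UMIs, with at least 500 genes per cell and as a mean over cells. Blood endothelial cells (95 and 43 cells) had 1 and 0 Lama2 UMIs, and a count of 0 allows up to 23.6 CPM in the JVL-14 library.

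Lama5, the alpha chain of mature vessel and epithelial laminins, was the reverse. It was at 58.8 CPM (34.3 to 94.2) in sham and 86.6 CPM (43.2 to 155) in JVL-14 blood endothelial cells, from 17 and 11 UMIs, against 1 UMI in each library's fibroblasts. A second endothelial-type cluster led by Fabp4, Gpihbp1 and Car4 (71 and 3 cells, left unnamed) had 72.2 CPM of Lama5 in sham. These 2 groups held 25 of the 36 Lama5 UMIs of the sham library, and choroid plexus held 4.

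Lama4, the other vascular alpha chain, was shared more widely. Its levels were 100.4 and 126 CPM in blood endothelial cells, 86.7 and 92.2 CPM in Schwann and glial cells and 59.4 and 44.5 CPM in fibroblasts. The first 2 classes overlapped in their intervals (67.2 to 144 and 53.0 to 134 CPM in sham), and their order cannot be read. Mural cells (20 and 16 cells) had 57.4 and 175 CPM of Lama4, from 2 and 6 UMIs. Endothelial cells thus held Lama4 and Lama5 with almost no Lama2, and fibroblasts Lama2 and Lama4 with almost no Lama5. The map of levels by class shows this as the dark cells of the Lama5 and Lama2 columns.

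**Figure D1:**
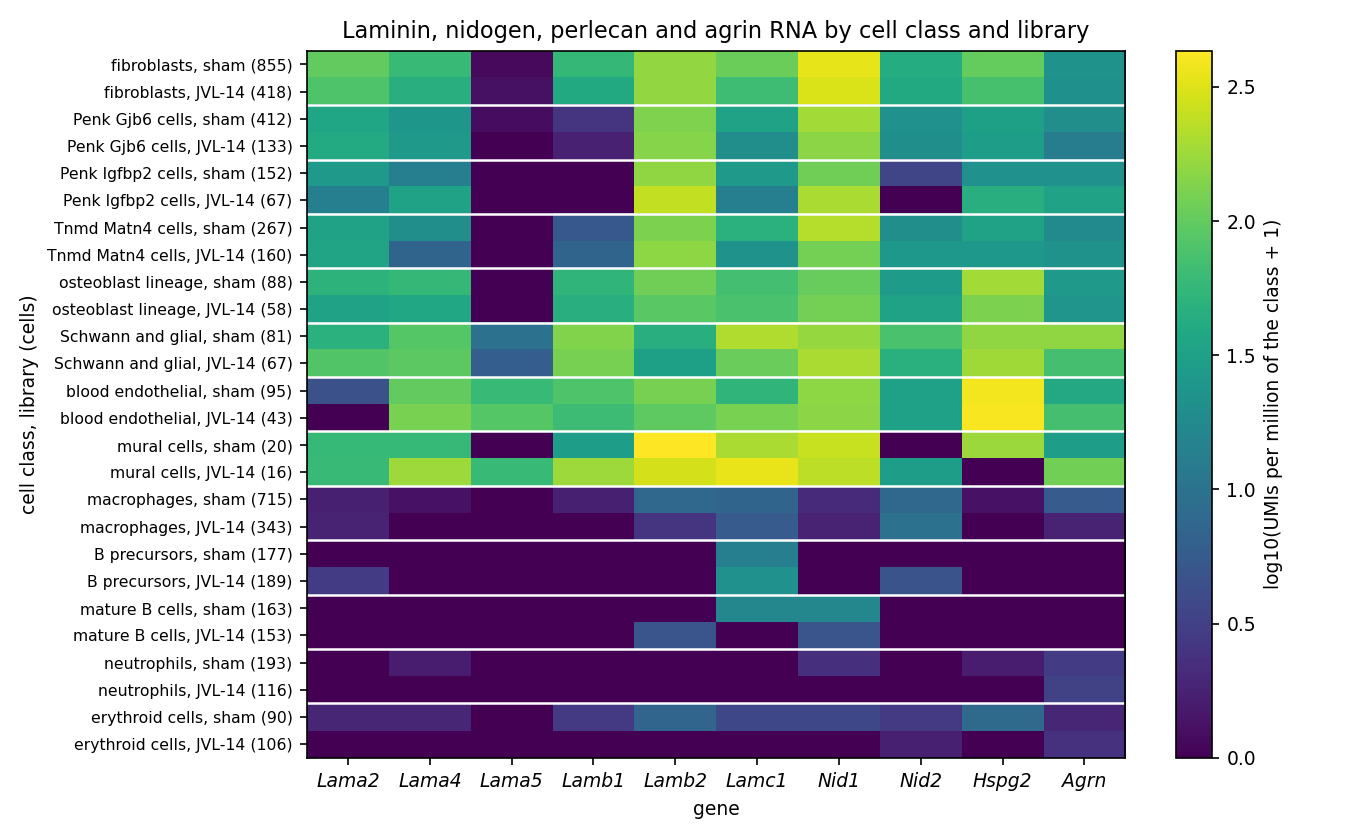
Levels of the 10 members (columns) in 13 cell classes and both libraries (rows, with cell numbers), as log10 of CPM plus 1. Lama5 is dark outside the endothelial, glial and JVL-14 mural rows, Lama2 is dark in the endothelial and blood cell rows, and Lamb1 is dark in the Penk rows where Lamb2 is bright.

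The beta chain genes also differed in where they were found. Lamb2 RNA was near one level in the fibroblast clusters: 139 and 163 CPM in Inmt Mfap4 fibroblasts, 178 and 154 in Chad Comp fibroblasts, 190 and 161 in Ptgds Apod fibroblasts and 213 and 179 in Pi16 Fbln2 fibroblasts. In the Penk Gjb6 cells it was 134 and 141 CPM, in osteoblast lineage cells 114 and 91.2 and in mural cells 430 and 291. Lamb1 RNA ran over more than 2 orders of magnitude from Pi16 Fbln2 fibroblasts to Penk Gjb6 cells. It was at 399 CPM in sham Pi16 Fbln2 fibroblasts, 157 and 192 in Ptgds Apod fibroblasts, 37.8 and 35.4 in Inmt Mfap4 fibroblasts, 14.5 and 12.7 in Chad Comp fibroblasts and 1.58 and 0.757 in Penk Gjb6 cells.

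The Lamb1 value of the Penk Gjb6 cells (7 and 1 UMIs in 412 and 133 cells) was no higher than that of sham erythroid cells, 1.80 CPM from 2 UMIs, which serve as a background for free RNA. Neutrophils, mature B cells, B cell precursors and JVL-14 erythroid cells, also backgrounds, had 0 Lamb1 UMIs. Whether the Penk Gjb6 value lies above background cannot be told from these counts. These Penk Gjb6 cells had medians of 10766 and 9179 UMIs, more than fibroblasts had. Lamb1 had no UMI in the Penk Igfbp2 cells of either library, which allows up to 7.60 and 19.0 CPM, while Lamb2 was at 157 and 247 CPM there. The class with most Lamb1, among those with at least 20 cells in each library, was Schwann and glial cells, at 134 CPM (91.3 to 191) and 123 CPM (78.8 to 183).

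Lamc1, the gamma chain of nearly all laminins, was at 208 and 108 CPM in Schwann and glial cells, 51.9 and 126 CPM in blood endothelial cells and 109 and 64.2 CPM in fibroblasts, so that the order of the classes differed between the libraries. Mural cells (20 and 16 cells) had 201 and 349 CPM of Lamc1, from 7 and 12 UMIs. Nid1 had the most UMIs of any member, with 3454 and 1369 in all. It was highest in fibroblasts (345 and 303 CPM), with 165 and 200 CPM in Schwann and glial cells, 184 and 149 CPM in Penk Gjb6 cells and 152 and 150 CPM in blood endothelial cells. Nid2 was lower in these classes, at 41.8 and 39.1 CPM in fibroblasts and 73.7 and 46.1 CPM in Schwann and glial cells. Nid2 overlaps Rtraf, a widely expressed gene on the opposite strand with 9618 UMIs in these files, and since the strand setting of the counting is not given, low Nid2 counts are uncertain.

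Hspg2 was highest in blood endothelial cells, at 391 CPM (322 to 470) and 401 CPM (299 to 528), and at 460 CPM in the sham Gpihbp1 Car4 cells. Osteoblast lineage cells followed at 184 and 130 CPM and Schwann and glial cells at 156 and 179 CPM. The intervals of these 2 overlapped, and all lay below the endothelial ones. Fibroblasts were at 101 and 72.0 CPM and Penk Gjb6 cells at 30.7 and 28.8 CPM. Agrn, best known for clustering acetylcholine receptors at the neuromuscular junction, was at 156 CPM (109 to 216) and 71.7 CPM (39.2 to 120) in Schwann and glial cells and near 20 CPM in fibroblasts (21.6 and 20.0).

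Blood and immune cells had few member UMIs. Summed over the 10 members, neutrophils had 4.38 and 2.28 CPM, erythroid cells 25.2 and 2.08, mature B cells 31.3 and 7.98, B cell precursors 12.6 and 26.1 and macrophages 27.6 and 17.2, against 994 and 822 in fibroblasts, 1079 and 937 in Schwann and glial cells and 1031 and 1149 in blood endothelial cells. The few mural cells (20 and 16) had 1233 and 1484 CPM, from 43 and 51 UMIs. Neutrophils had medians of 7415 and 5598.5 UMIs. In B cell precursors, 6 of 6 sham and 11 of 14 JVL-14 member UMIs were Lamc1, each in its own cell (12.6 and 20.5 CPM), while Nid1, with the most UMIs of all members in the series, had none in either library (which allows up to 6.29 and 5.59 CPM). Neutrophils had no Lamc1 UMI in either library (which allows up to 1.88 and 3.43 CPM). Other immune cells did have Lamc1. Mature B cells had 8 and 0 UMIs (15.7 and 0 CPM) and T cells 5 and 0 (32.4 and 0 CPM). Natural killer or innate lymphoid cells had 5 and 2 UMIs (8.49 and 9.04 CPM) and macrophages 17 and 6 (6.10 and 4.68 CPM).

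Fibroblasts were the main source of member RNA, with 57.5% of all member UMIs in sham and 60.9% in JVL-14, and each fibroblast had UMIs of a median of 3 members. RNAs of an alpha, a beta and the gamma chain were found in the same cell in 181 of 855 sham fibroblasts (21.2%, Clopper-Pearson interval 18.5 to 24.1) and 68 of 418 JVL-14 fibroblasts (16.3%, 12.9 to 20.2), at medians of 6785 and 6892 UMIs. In Penk Gjb6 cells the shares were 10.4% and 5.26%. Lama2, Lamb2 and Lamc1 RNA were found together in 8.50% and 3.76% of Penk Gjb6 cells, and Lama2, Lamb1 and Lamc1 in 0 of 412 and 0 of 133. These count UMIs found together, and with 7 and 1 Lamb1 UMIs in all they do not give the share of cells that hold the chains. In fibroblasts the same 2 combinations were found in 14.0% and 11.2% and in 9.12% and 5.50% of cells. No neutrophil and no mature B cell held all 3 kinds of chain, and 1 of 90 sham erythroid cells did. The share of fibroblasts with a Nid1 UMI was 72.5% and 68.7%, and 26.9% and 23.1% when each cell was thinned to 1000 UMIs, which left out 11 sham and 5 JVL-14 cells. For Lamc1 the shares were 37.9% and 29.9%, and 9.77% and 7.10% thinned, against 0 of 193 sham neutrophils (exact upper limit 1.89%). The Pi16 Fbln2 cluster, with 60 sham and 3 JVL-14 fibroblasts, had medians of 6 and 8 members per cell. The fibroblast shares were not computed without that cluster.

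Fibroblast clusters differed in their levels of most members. Pi16 Fbln2 fibroblasts, which also lead in Tnxb, Clec3b and Dpt, had 3972 CPM of the 10 members in sham, against 1610 in Ptgds Apod, 807 in Inmt Mfap4 and 705 in Chad Comp fibroblasts. In sham, Nid1 was at 1263 CPM there and between 242 and 357 CPM in the other 3 clusters. Lamc1 was at 753 CPM, against 44.5 to 250 CPM, and Hspg2 at 604 CPM, against 63.7 to 160 CPM. Lama4 was at 271 CPM, against 42.4 to 53.3 CPM. Lama2 was as high in Ptgds Apod fibroblasts (407 CPM) as in Pi16 Fbln2 fibroblasts (374 CPM), and Lamb2 differed least. Agrn ran the other way: it had 2 UMIs in each of the Pi16 Fbln2 and Ptgds Apod clusters (5.54 and 6.67 CPM) and was at 24.2 and 22.5 CPM in the Inmt Mfap4 and Chad Comp clusters.

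**Figure D2:**
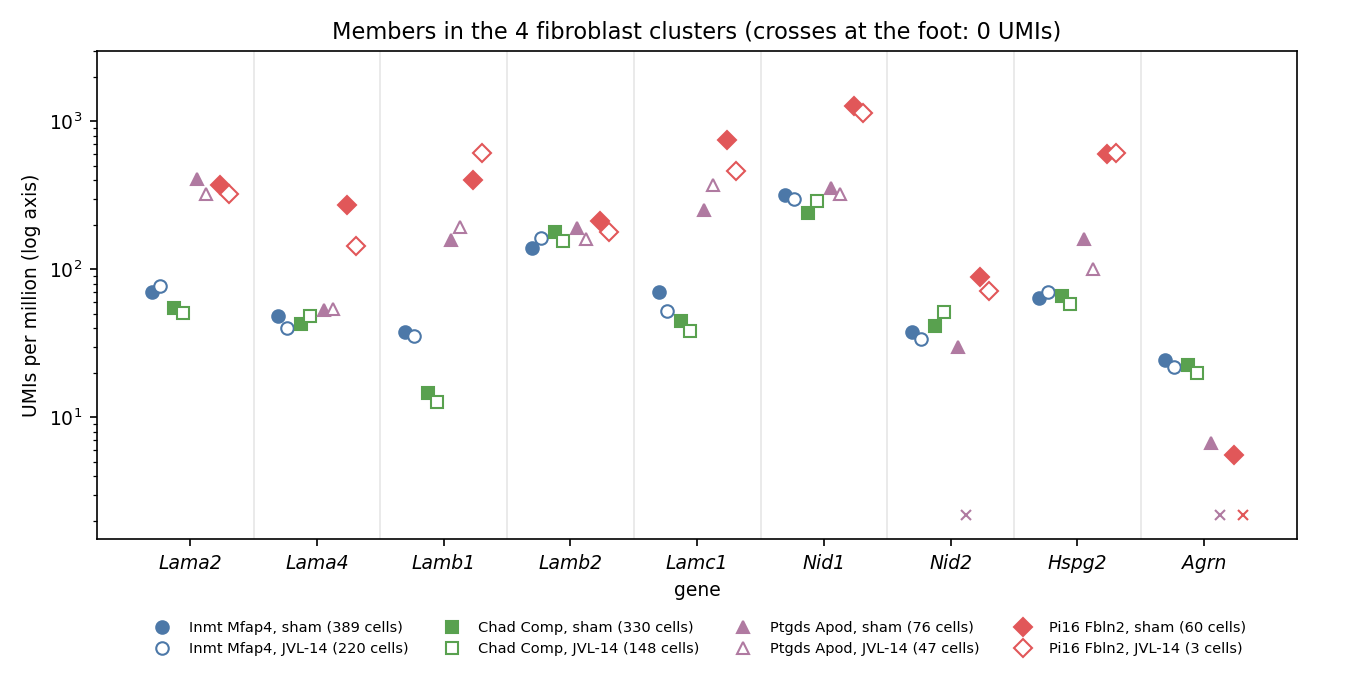
Levels of 9 members (CPM, log axis) in the 4 fibroblast clusters, with filled symbols for sham, open symbols for JVL-14 and crosses for 0 UMIs. The Pi16 Fbln2 symbols stand above the others for Nid1, Lamc1, Hspg2 and Lama4, Lamb2 is near 1 level in all clusters, and Agrn is lowest in the Ptgds Apod and Pi16 Fbln2 clusters.

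Over all retained cells the members summed to 369 CPM in the sham library and 271 CPM in the JVL-14 library, which mixes levels within classes with their shares of cells. In fibroblasts alone the JVL-14 level was 822 CPM against 994 CPM, a ratio of 0.827 (0.789 to 0.867). Of the 9 measured members, 1 was past 1.5-fold lower in JVL-14 and none higher, and all 9 log2 ratios were below 0, with a median of -0.29. Under 20 other settings Lamb2 was above 0 in 8, Nid2 in 3, Nid1 and Agrn in 2 each and Lama2 in 1. These 20 include settings that change only the fold or the CPM and UMI minimum, which cannot move a log2 ratio. Among the 6355 genes measured in fibroblasts 3.23% were past 1.5-fold lower and 1.56% past it higher, and the median log2 ratio was 0.02. Lamc1, at 109 CPM from 664 UMIs and 64.2 CPM from 199 UMIs, had the ratio 0.588 (0.499 to 0.690). The next lowest were Lamb1 (55.9 and 39.1 CPM, 0.698, 0.563 to 0.862), Hspg2 (0.709, 0.606 to 0.828) and Lama4 (0.750, 0.612 to 0.915). Lama2 (0.816) and Nid1 (0.879) also had intervals below 1, and Lamb2 (0.990), Nid2 (0.935) and Agrn (0.929) had intervals that hold 1.

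Most of this difference went with 1 cluster. Pi16 Fbln2 fibroblasts made up 7.02% of sham and 0.718% of JVL-14 fibroblasts but 23.7% and 3.89% of their member UMIs, and 272 of the 664 sham Lamc1 UMIs came from them. Without that cluster the members summed to 806 CPM among sham and 798 CPM among JVL-14 fibroblasts, a ratio of 0.989 (0.942 to 1.04). None of the 9 measured members was then past 1.5-fold in either direction, where 2.59% of 6332 measured genes were past it lower and 1.47% higher. The ratios ran from 0.884 for Lamc1 (0.738 to 1.05) to 1.03 for Nid1 (0.949 to 1.12), and the interval of each of the 9 held 1. Within the other clusters the summed ratio was 0.980 (0.918 to 1.05) in Inmt Mfap4, 1.03 (0.941 to 1.12) in Chad Comp and 0.945 (0.797 to 1.12) in Ptgds Apod fibroblasts. Single members with an interval leaving out 1 there were Lamc1 and Lamb2 in Inmt Mfap4 fibroblasts (0.750 and 1.17), Nid1 in Chad Comp fibroblasts (242 and 289 CPM, interval 1.04 to 1.38) and Lamc1 in Ptgds Apod fibroblasts (1.48).

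Whether Pi16 Fbln2 fibroblasts were fewer in the dura or fewer were recovered cannot be told apart with 1 library a group. Their 3 JVL-14 cells had 2038 CPM of the 10 endothelial markers, 1 of them at 0, against 125 CPM in the 60 sham cells, 6 of them at 0, and the part of this in their values was not tested. The 9 macrophage markers were at 942 and 0 CPM in these cells and the mural markers at 105 and 608 CPM, and their part was not tested either. Over all fibroblasts the 10 fibroblast markers were at 22566 and 23063 CPM, the skeletal muscle markers at 249 and 9.68 CPM and the erythroid markers at 501 and 1392 CPM, and the part of these in the result was not tested.

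**Figure D3:**
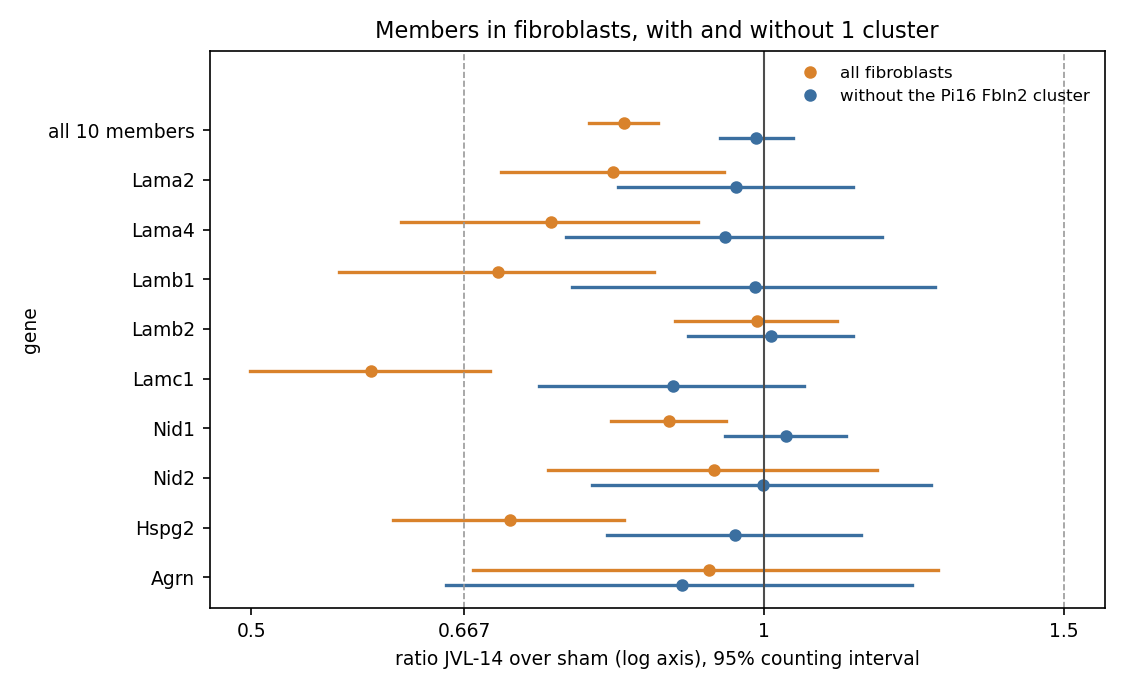
Ratio of JVL-14 to sham levels (log axis, points) with 95% counting intervals (lines) for the summed members and 9 single members in fibroblasts, for all fibroblasts and without the Pi16 Fbln2 cluster. Dashed lines mark 1.5-fold in each direction. All ratios of all fibroblasts lie below 1, from 0.588 for Lamc1 to 0.990 for Lamb2, and without the cluster all intervals hold 1.

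Besides fibroblasts, where its ratio was 0.884 (0.738 to 1.05) without the Pi16 Fbln2 cluster, Lamc1 was past 1.5-fold lower in Penk Gjb6 cells and in Schwann and glial cells. In Penk Gjb6 cells it was at 31.8 and 18.9 CPM (141 and 25 UMIs, 0.594, 0.372 to 0.914). Its log2 ratio there was between -0.92 and -0.46 under 16 other settings. Those changing only the fold or the CPM and UMI minimum cannot move a log2 ratio. Lamc1 was within 1.5-fold in these cells with no doublet removal (-0.46) and with libraries clustered separately (-0.53). Within Inmt Mfap4 fibroblasts it was at 69.7 and 52.3 CPM (0.750, 0.583 to 0.959). It was not lower everywhere: in Ptgds Apod fibroblasts it was at 250 and 369 CPM (1.48, 1.01 to 2.15), in osteoblast lineage cells at 69.7 and 75.3 CPM (1.08, 0.658 to 1.76), and in the Prx Schwann cells its ratio was 1.15 with an interval that holds 1. In blood endothelial cells, of which JVL-14 had fewer than 50, it was at 51.9 and 126 CPM (2.43, 1.12 to 5.27), from 15 and 16 UMIs. There the erythroid markers were at 42241 and 701 CPM, and their part was not tested.

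**Figure D4:**
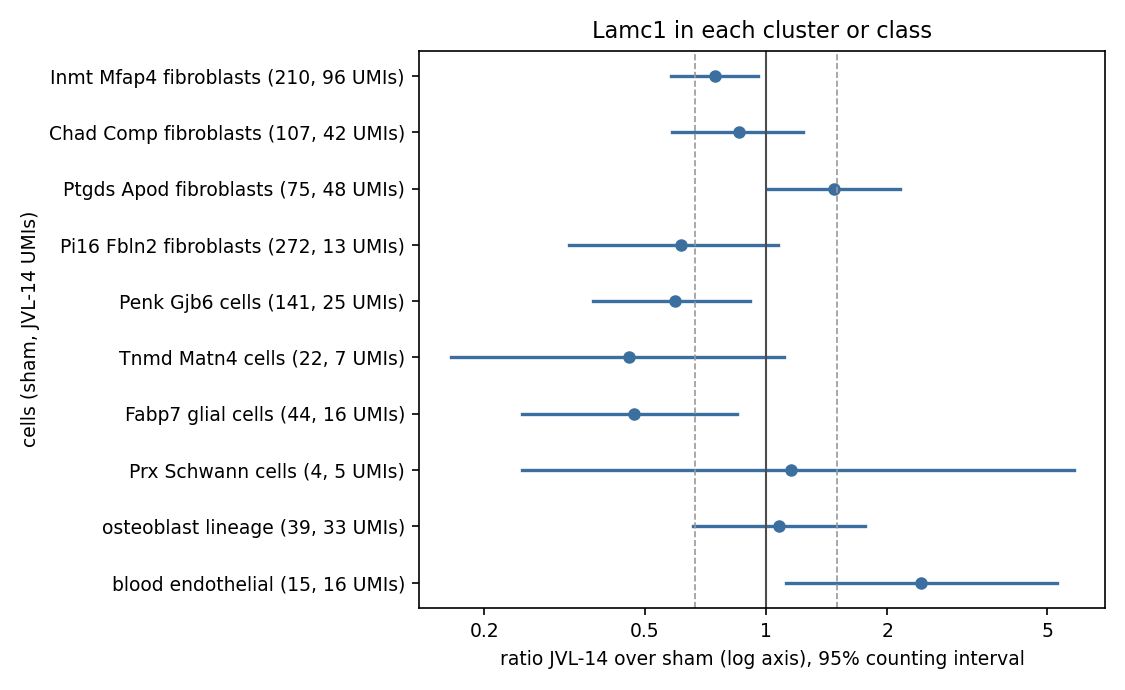
Ratio of JVL-14 to sham Lamc1 levels (log axis, points) with 95% counting intervals (lines) in 10 clusters or classes, with the UMIs of each library. Dashed lines mark 1.5-fold in each direction. Intervals lie below 1 for Inmt Mfap4 fibroblasts, Penk Gjb6 cells and Fabp7 glial cells and above 1 for Ptgds Apod fibroblasts and blood endothelial cells.

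In Penk Gjb6 cells, 1 of 6 measured members was past 1.5-fold lower (Lamc1) and none higher, where 4.04% of 6060 genes were past it lower and 3.91% higher. Nid1 was at 184 and 149 CPM (0.810, 0.690 to 0.948), while Lamb2 (1.05), Lama2 (1.15), Lama4 (1.05) and Hspg2 (0.937) had intervals that hold 1. The summed ratio was 0.906 (0.825 to 0.994). In the smaller Penk Igfbp2 cluster both measured members were past 1.5-fold higher: Lamb2 at 157 and 247 CPM (1.57, 1.03 to 2.39) and Nid1 at 114 and 196 CPM (1.72, 1.05 to 2.78). In that cluster 12.4% of 3788 genes were past 1.5-fold higher and 18.1% lower. In Tnmd Matn4 cells 2 of 5 measured members were past 1.5-fold lower, against 17.3% of 4886 genes lower and 8.58% higher. They were Nid1 at 219 and 119 CPM (0.544, 0.366 to 0.794) and Lamc1, from 22 and 7 UMIs, whose interval holds 1. In the Tnmd Matn4 cells the erythroid markers were at 3489 and 12366 CPM, the mural markers at 336 and 1174 and the muscle markers at 372 and 15.3, and in the Penk Igfbp2 cells the muscle markers were at 567 and 25.3 CPM. The part of these in the values was not tested.

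In Schwann and glial cells (81 and 67 cells) 3 of 8 measured members were past 1.5-fold lower and 1 higher. There 19.2% of 3842 genes were past 1.5-fold lower and 20.2% higher. Agrn was at 156 and 71.7 CPM (0.460, 0.229 to 0.873) and Lamc1 at 208 and 108 CPM (0.517, 0.294 to 0.880), while Nid2 (0.626) and Lama2 (1.72) had intervals that hold 1. The class joins Fabp7 glial cells (57 and 33) and Prx Schwann cells (24 and 34), so its mix of cells differed between the libraries. A class level weights cells by their UMIs, so these cell numbers do not give the part of each cluster in it.

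In the Fabp7 cells alone Lamb1 was at 113 and 22.0 CPM (20 and 3 UMIs, ratio 0.194, 0.0369 to 0.654). Agrn was at 153 and 44.0 CPM there (0.287, 0.0971 to 0.711) and Lamc1 at 249 and 117 CPM (0.470, 0.248 to 0.850). In the Prx cells the ratios were 1.76 for Lamb1, 0.820 for Agrn and 1.15 for Lamc1, each from at most 21 UMIs a library and with an interval that holds 1. In the Fabp7 cells the 10 endothelial markers were at 1150 and 330 CPM, with 9 of them at 0 in sham and 7 in JVL-14. The choroid plexus markers were at 244 and 814 CPM there and the arachnoid markers at 11.3 and 762 CPM, with 7 of 8 at 0 in JVL-14. The part of these differences was not tested.

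In osteoblast lineage cells (88 and 58 cells) 2 of 9 measured members were past 1.5-fold lower, Lama2 (0.638) and Lama4 (0.658), and none higher, against 12.5% of 6395 genes lower and 12.1% higher. Both intervals hold 1. Hspg2, at 184 and 130 CPM, had a ratio of 0.706 (0.501 to 0.985). The osteoblast markers were at 21376 and 11618 CPM, the neutrophil markers at 4568 and 66.1 CPM and the erythroid markers at 256 and 14531 CPM, and their part was not tested. No member was measured in the compared classes of immune cells, erythroid cells and olfactory neurons.

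Other genes of the basement membrane were taken from 7 lists. Of the other laminin chains, Lama1, Lama3, Lamb3 and Lamc3 were not measured in fibroblasts, Penk Gjb6, Schwann and glial or osteoblast lineage cells. In fibroblasts 3.23% of all 6355 measured genes were past 1.5-fold lower and 1.56% higher. Of 7 measured basement membrane collagens there, 2 were past it higher and 1 lower. Col4a5, a chain of collagen IV, was at 19.2 and 36.8 CPM (1.91, 1.46 to 2.50), where 5 cells held 24.8% (sham) and 59.6% (JVL-14) of the UMIs, and Col8a1, a network-forming collagen, at 375 and 574 CPM (1.53, 1.44 to 1.63). Col15a1, a basement membrane zone collagen, was at 85.2 and 48.1 CPM (0.564, 0.467 to 0.679). Without the Pi16 Fbln2 cluster, of which Col15a1 is a leading gene, Col15a1 was at 32.4 and 33.5 CPM (1.04, 0.807 to 1.33), while Col4a5 had a ratio of 2.36 (1.77 to 3.15) and Col8a1 1.45.

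Against 3.23% of all measured genes lower and 1.56% higher in fibroblasts, 1 of 12 measured associated proteins was past 1.5-fold higher and 1 lower. Smoc1, a calcium-binding matrix protein, was at 135 and 229 CPM (1.69, 1.53 to 1.87) and at 1.61 without the Pi16 Fbln2 cluster. Fbln2, a leading gene of that cluster, had a ratio of 0.220 with it and 0.997 without it. Among 17 measured receptors 1 was past 1.5-fold, the collagen receptor Ddr1 (15.8 and 27.4 CPM, 1.74, 1.28 to 2.35). Among 12 genes of assembly and crosslinking 1 was, the collagen lysyl hydroxylase Plod2 (88.8 and 162 CPM, 1.82, 1.61 to 2.06). Of 14 turnover genes, 2 were past it lower: the aggrecanase Adamts5 (145 and 73.0 CPM, 0.504, and 0.686 without the cluster) and the gelatinase Mmp9 (226 and 34 UMIs, 0.295, and 0.280 without it). None of the 10 measured genes of heparan sulphate synthesis was past 1.5-fold in fibroblasts.

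In Penk Gjb6 cells 4.04% of all 6060 measured genes were past 1.5-fold lower and 3.91% higher. None of the measured collagens (4), associated proteins (8) and receptors (12) there was past 1.5-fold, and 1 of 11 assembly genes was past it lower. Of 13 turnover genes 1 was past it higher and 1 lower. Adamts5 had the opposite direction from fibroblasts there, at 21.7 and 40.1 CPM (1.85, 1.30 to 2.61), and the protease inhibitor Timp1 was at 292 and 190 CPM (0.651). Of 10 heparan sulphate genes 2 were past 1.5-fold lower, the polymerase Ext1 (0.581) and Hs3st1 (0.653), which sulphates the chain.

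In Schwann and glial cells, where 19.2% of all 3842 measured genes were past 1.5-fold lower and 20.2% higher, 4 of 5 measured associated proteins were past 1.5-fold lower and none higher, among them Bgn (0.256), Fbln2 (0.326) and Vwa1 (0.663), and 1 of 3 collagens was, Col18a1 (0.295). Of 19 receptors 6 were past it lower and 3 higher. The agrin receptor Lrp4 was at 269 and 51.2 CPM (0.191), and the integrin gene Itga1 had a ratio of 0.270. Ptprf (2.06) and Itgb4 (1.73), a subunit of the laminin receptor of Schwann cells, were higher in JVL-14. None of 6 assembly genes was past 1.5-fold, 2 of 8 turnover genes were past it lower (Plat, 0.394, and Ctsl, 0.624), and so were 2 of 4 heparan sulphate genes, with Xylt1 at 0.489. Of the JVL-14 UMIs of Bgn, Fbln2, Lrp4, Itga1, Plat and Xylt1, between 83.3% and 100% lay in 5 cells.

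In osteoblast lineage cells, against 12.5% of all 6395 measured genes lower and 12.1% higher, 1 of 4 collagens was past 1.5-fold higher, Col4a1 at 102 and 162 CPM (1.59, 1.11 to 2.29). Of 8 associated proteins 3 were past it lower, including Fbln1 at 1266 and 687 CPM (0.542) and Ecm1 (0.191, from 20 and 3 UMIs). Of 15 receptors 2 were lower, with Sdc4 at 0.646, and of 15 turnover genes 2 were lower and 1 higher, with Plat at 0.601 and Mmp9 at 0.174 from 22 and 3 UMIs. The neutrophil markers in these cells were at 4568 and 66.1 CPM, and their part in the Mmp9 value was not tested. Of 12 assembly genes 1 was lower, and of 9 heparan sulphate genes 1 was lower and 2 higher. Each gene named with a ratio in these 3 classes had an interval that leaves out 1.

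The genes whose pattern was most like each member were found over 34 points, 17 named classes in 2 libraries, as Pearson's r of log2(CPM + 10) among 11980 genes. These points share libraries and depth, and r is a description. Lama5 was closest to Bcam (0.98), itself a receptor for the laminin alpha chain that Lama5 encodes, and to the endothelial genes Clec14a (0.97) and Kdr (0.97). Lama2 was closest to Ndn (0.99), Rarres2 (0.98) and Mir100hg (0.98). Hspg2 was closest to Col4a2 (0.98), Ptpn14 (0.98) and Emp2 (0.97), and Lama4 to S100a16 (0.98), Col4a1 (0.98) and Ttc23 (0.97). For Lamb2 the closest were Cavin1, Cald1 and Tgfb1i1 (0.98 to 0.99), for Lamb1 Emp2, Synm and Cdc42ep1 (0.95 to 0.98), and for Nid1 Phldb2, Fbln5 and Casp12 (0.97 each). Nid2 was closest to Syde1, S100a16 and Synm (0.96 each), Lamc1 to Mpdz, Synm and S100a16 (0.90 to 0.91) and Agrn to Ptk2, Slc44a1 and Rhobtb3 (0.90 to 0.91). Among the members Lama4 and Hspg2 were most alike (0.98), and Lama2 and Lama5 least (0.01).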

How the data were processed

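Dura was profiled in 1 sham and 1 JVL-14 library (10x 3′ chemistry, 20000 cells loaded each). The authors deposited raw UMI counts per gene and barcode, written by Cell Ranger 8.0.0 per the file headers. The submitters' processing notes name mm39, and no source used here names the annotation. Barcodes with under 200 genes or over 10% mitochondrial UMIs were left out, and the top 5% of Scrublet scores (scanpy 1.11.5) were removed as doublets, since the automatic threshold marked 0.101% and 0.268%. Both libraries were clustered together (2000 variable genes less 34 members and list genes, 30 components, 15 neighbours, Leiden resolution 1) into 37 clusters. Of these, 31 were named by markers, with limits set after clusters were seen, in 3 versions, and 6 stayed unnamed. Names are therefore rebuilt and may differ from the study's. Log2 ratios carry 0.5 added UMIs. The scripts were tested on simulated data.

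Members, lists and tests were chosen with earlier results of these data known. Named were all 10 members in compared classes, from each list at most 4 genes with the largest ratio past 1.5-fold whose interval leaves out 1, and the 3 genes most like each member. List genes of immune and unnamed clusters are not printed. Of the other settings tried, 19 were listed at the start and 2 were chosen after seeing the data. Some marker and list genes are not reported here.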

Additional observations from a re-analysis of the deposited data

Results flagged for a closer look

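For Lamc1 and Nid1 the ratio of JVL-14 to sham lay above 1 in 1 class and below 1 in others, with each interval leaving out 1. The Lamc1 ratio was 2.43 in blood endothelial cells, against 0.588 in fibroblasts, 0.594 in Penk Gjb6 cells and 0.517 in Schwann and glial cells. The blood endothelial value rests on 15 and 16 UMIs in 95 and 43 cells, short of the 50 per library set for a compared class. The erythroid markers there were at 42241 and 701 CPM, and their part was not tested. For Nid1 the ratio was 1.72 in Penk Igfbp2 cells, against 0.544 in Tnmd Matn4 cells, 0.810 in Penk Gjb6 cells and 0.879 in fibroblasts. Without the Pi16 Fbln2 cluster the fibroblast ratios were 0.884 (0.738 to 1.05) for Lamc1 and 1.03 (0.949 to 1.12) for Nid1, whose intervals hold 1. The difference between classes was not tested, and each value rests on 1 library a group.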

How the results depend on the processing

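No paired analysis was possible because each group is 1 library. Of 813 values under other settings, 747 moved by less than their counting interval or, for counts, stayed within 1.5 times, 62 moved and 4, whose interval had left out 1, changed sign, and causes were not tested. These 4 were the log2 ratio of Nid1 in fibroblasts (0.043 without clusters lying over 90% in 1 library, 0.031 as the mean within clusters), Lama2 in fibroblasts (0.0064 as that mean) and Lamc1 in the Prx Schwann cells alone (0.17). Ratios whose interval held 1 also changed sign, such as Lamb2 in fibroblasts in 8 and Lamb1 in Schwann and glial cells in 6 of 20 settings. Settings that change only the fold or the CPM and UMI minimum cannot move a log2 ratio. Their log2 ratios equal the main values, so the 747 include values that could not move. The counts of members past the fold that follow are without the share of all measured genes at each setting. That share is given above only for the main setting and for fibroblasts without the one-sided cluster. The counts therefore cannot show whether the members moved apart from other genes. In fibroblasts the count of members past the fold (1) was 2 at up to 5% mitochondrial UMIs, without the 5 cells richest in member UMIs and with cells thinned to 2000 UMIs, 0 without the one-sided cluster and at a fold of 2, and 4 at the smallest fold tried. The summed log2 ratio (-0.27) was -0.20 with at least 500 genes per cell, -0.015 without the one-sided cluster, -0.19 with unnamed clusters scoring best as fibroblast added and -0.011 as the mean within clusters. In Penk Gjb6 cells the count (1) was 0 with no doublet removal, with libraries clustered separately, at 50 CPM and UMIs and at a fold of 2, and 2 with no CPM minimum. Their sum (-0.14) was -0.32 with at least 500 genes and -0.35 at Leiden resolution 2, and at up to 5% mitochondrial UMIs no cluster had that name. In Schwann and glial cells the count (4) was 1 at up to 5% mitochondrial UMIs, at a fold of 2 and in the Prx cells alone, and 2 with at least 500 genes, at 50 CPM and UMIs and with thinned cells. Their sum (-0.20) was 0.090 with at least 500 genes, 0.081 as a mean over cells, -0.50 in the Fabp7 cells and 0.39 in the Prx cells. In osteoblast lineage cells the count (2) was 1 with no doublet removal, with at least 500 genes and with mitochondrial, ribosomal and haemoglobin genes out of the denominator. It was 0 at up to 5% mitochondrial UMIs, with members kept among the variable genes, with libraries clustered separately, without the 5 richest cells, at 50 CPM and UMIs, at a fold of 2 and with thinned cells, 5 as a mean over cells and 4 at the smallest fold tried. The class with the highest level was the same for 8 to 10 of the 10 members under the clustering settings, with thinned cells and as a mean over cells. It was lowest, at 8, as a mean over cells. With 1 library a group, depth sets the intervals but not the spread between mice, and classes under 50 cells rest on few UMIs.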

Other observations

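Choroid plexus cells were found in sham only (80 cells). Of their 38 member UMIs, 12 were Nid2, 11 Lamb1 and 4 Lama5, and Nid1 and Lama4 had 0. Macrophages (715 and 343 cells) had 19 and 11 Nid2 UMIs and 3 and 1 Nid1 UMIs, whereas fibroblasts had 254 and 121 Nid2 UMIs and 2096 and 939 Nid1 UMIs. Other neurons (22 and 26 cells) had 5 and 10 Agrn UMIs among 9 and 13 of all members.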
